A study of Mus musculus with 16 samples.

Results

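The 9 genes described here encode transcription factors of dorsal telencephalic (pallial) identity and of cortical area patterning: *Emx1*, *Emx2*, *Lhx2*, *Dmrta2*, *Otx1*, *Gli3*, *Lef1*, *Nr2f1* and *Nr2f2*. They were chosen by name, for these known roles, from the 51912 genes listed in the count tables, with earlier results of these data known. The study had already reported *Emx1* as lower in cKO from these libraries. All 9 had at least 1 count in each of the 15 mice. UMI RNA-seq, which counts each starting molecule once, had been made from microdissected E15.5 cerebral cortex. The study asked what is lost when *Knl1* (called *Casc5* in the labels), a kinetochore gene needed for faithful chromosome segregation, is deleted from cortical neural progenitor cells (NPCs), and whether the outcome needs p53.

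The 4 cKO mice (5, 7, S2 and F3) carried *hGFAP-Cre* with a conditional *Knl1* knockout, and the 4 dKO mice (T2, T8, F1 and F7) carried *hGFAP-Cre* with conditional knockouts of both *Knl1* and *Trp53*. The ctrl group held 7 mice, of which 2, 6, S1, S3 and T3 are labelled *Knl1* wild type and T4 and T5 heterozygous. The labels do not say whether a given ctrl mouse carried the Cre transgene. *hGFAP-Cre* recombines in NPCs of the cortex and their descendants, so interneurons that migrate in from the ventral telencephalon, microglia and vessels in the same dissection are outside its main lineage. Each sample is labelled with 1 mouse, and S2 had 2 libraries, whose counts were summed. Litter 1 held ctrl 2 and 6 with cKO 5 and 7, and litter 2 held ctrl S1 and S3 with cKO S2. Litter 3 held ctrl T3, T4 and T5 with dKO T2 and T8, and litter 4 held cKO F3 with dKO F1 and F7. Batch 1 held ctrl 2, 6 and S3 with cKO 5, 7 and S2, and batch 2 held ctrl S1. Batch 3 held ctrl T3, T4 and T5, cKO F3 and all dKO mice. Batch and genotype therefore cannot be fully told apart where dKO is compared.

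The pallium is set apart from the ventral telencephalon by a small group of transcription factors that act in the progenitors of the ventricular zone. Wnt and BMP signals from the cortical hem at the medial edge, and FGF signals from the rostral pole, give these factors graded levels across the sheet, and the gradients set the positions of the later cortical areas. *Emx2* and *Dmrta2* favour medial and caudal fates, and *Nr2f1* and *Nr2f2* are highest caudally and laterally. *Gli3* as a repressor holds back ventral fate, and *Lef1* carries the Wnt signal to its target genes. *Emx1* and *Lhx2* are defining markers of dorsal cortical tissue, and both were counted in all 15 mice, at no less than 14.6 and 67.8 CPM.

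Promoter windows of RefSeq on GRCm38.p6 were at hand for 8 of the 9 genes. They are shown for *Lhx2*, which fell in cKO, for *Dmrta2*, which had the lowest fitted value in cKO, and for *Nr2f2*, whose fitted value lay on the other side of 0. Each is the 250 bases before the RefSeq start, written 5′ to 3′ on the strand of the gene, and none overlaps an exon of its own gene in GENCODE. The windows are chr2:38339031-38339280 (plus strand) for *Lhx2*, chr4:109977775-109978024 (plus strand) for *Dmrta2* and chr7:70366747-70366996 (minus strand) for *Nr2f2*. Capitals mark matches, on either strand, to the homeodomain core TAATTA, the TCF/LEF core CTTTGA, the nuclear receptor half-site AGGTCA, the GLI core ACCACCC or the p53 half-site.
Lhx2: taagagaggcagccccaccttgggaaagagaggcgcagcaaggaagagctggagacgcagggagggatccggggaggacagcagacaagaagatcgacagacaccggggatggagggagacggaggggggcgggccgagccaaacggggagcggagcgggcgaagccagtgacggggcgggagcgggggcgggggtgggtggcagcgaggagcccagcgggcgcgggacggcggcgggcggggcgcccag
Dmrta2: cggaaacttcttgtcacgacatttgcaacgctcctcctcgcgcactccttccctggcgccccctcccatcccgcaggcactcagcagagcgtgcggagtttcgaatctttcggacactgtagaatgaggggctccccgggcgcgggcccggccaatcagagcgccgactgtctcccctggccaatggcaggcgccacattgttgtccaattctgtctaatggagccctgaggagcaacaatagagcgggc
Nr2f2: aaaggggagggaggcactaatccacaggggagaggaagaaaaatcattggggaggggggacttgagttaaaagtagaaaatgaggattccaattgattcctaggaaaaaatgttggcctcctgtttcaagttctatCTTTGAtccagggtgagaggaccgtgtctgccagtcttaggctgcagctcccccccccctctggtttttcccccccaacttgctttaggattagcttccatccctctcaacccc
The *Lhx2* and *Dmrta2* windows were GC-rich, at 72.8% and 61.6% GC, and the *Nr2f2* window was at 50%. Only the *Nr2f2* window held a match, 1 TCF/LEF core that starts 114 bases before the gene's start. Of 32851 windows of the same length over all RefSeq genes, 13.8% held that core, 4.84% the homeodomain core, 14% the nuclear receptor half-site, 3.92% the GLI core and 7.13% the p53 half-site. These matches are letters in a window and not measured binding.

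Levels are CPM, counts scaled to a common total per mouse with TMM factors, and fold changes are on the log2 scale. The total was 399832 to 3266227 counts in ctrl, 4178461 to 8800987 in cKO and 552186 to 5396803 in dKO, so every cKO mouse was deeper than every ctrl mouse. Depth and genotype therefore cannot be told apart in cKO versus ctrl. With the 3 ctrl mice under 600000 counts (2, T3 and T5) left out, *Emx1* and *Lhx2* had log2 fold changes of -0.94 and -0.81 in cKO versus ctrl (edgeR FDR = 0.0131 and 0.0132). *Knl1* passed the test in no comparison. Its means were 62.8 ± 13.5 CPM in ctrl (SD, n = 7), 58.2 ± 14.8 in cKO (SD, n = 4) and 49.8 ± 11.6 in dKO (SD, n = 4), and *Trp53* averaged 30.5, 28.3 and 25.1 CPM. These counts over the whole gene do not resolve the deleted exons and so do not check the labels.

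In cKO cortex 2 of the pallial factors fell, and neither nuclear receptor of the area gradients had an unadjusted p below 0.05. *Emx1* and *Lhx2* fell to 55.7% and 62.1% of ctrl and passed the test (edgeR FDR = 0.0194 and 0.0337). Of the 9 genes, 8 had a fitted value below 0, and 7 of them reached an unadjusted p below 0.05 in edgeR. None of the 9 genes passed the test in a comparison that involved dKO. Fewer cells that express a gene and less of its RNA per cell cannot be told apart in this bulk tissue.

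*Emx1* (ENSMUSG00000033726.8, chromosome 6, 85187438 to 85204462, plus strand) encodes a homeodomain factor of the dorsal pallium. Its level ran from 23.5 CPM over a median of 40.0 to 48.7 in ctrl. In cKO it was 14.6 CPM in mouse 5, 22.8 in mouse 7, 28.1 in S2 and 21.4 in F3. Of the 4 cKO mice, 3 lay below every ctrl mouse, and S2 overlapped only with ctrl mouse 2. The log2 fold change was -0.84 (SE 0.19, 95% interval -1.23 to -0.46, edgeR FDR = 0.0194). The dKO mice split: T2 had 26.5 CPM, F1 31.1 and F7 24.4, while T8 had 53.6, above every ctrl mouse. Against ctrl the dKO value was -0.23 (SE 0.22, edgeR FDR = 1), and cKO against dKO gave -0.59 (SE 0.26, 95% interval -1.09 to -0.08, unadjusted p = 0.0239 and FDR = 1 in edgeR).

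*Emx2* (ENSMUSG00000043969.4, chromosome 19, 59458372 to 59465357, plus strand), the paralogue with a strong caudomedial gradient, was less abundant. Ctrl mice had 9.34 to 23.5 CPM with a median of 18.4. The 4 cKO mice were close together, at 12.6 CPM in mouse 5, 13.5 in 7, 15.5 in S2 and 13.2 in F3. They lay below 6 of the 7 ctrl mice and above the remaining one, T3, which had 4 counts. The log2 fold change was -0.49 (SE 0.19, unadjusted p = 0.0105 and FDR = 0.593 in edgeR). In dKO, T2 had 4.97 CPM from 3 counts, against 21.3 in T8, 21.1 in F1 and 14.0 in F7, and the difference from ctrl was -0.21 (SE 0.25, edgeR FDR = 1). The start of *Emx2* shares 264 bases with *Emx2os* on the opposite strand, and no source used here states whether the counting kept strands apart. *Emx2os* itself averaged 24.5 CPM in ctrl, 16.6 in cKO and 22.8 in dKO.

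*Lhx2* (ENSMUSG00000000247.11, chromosome 2, 38339281 to 38369733, plus strand) encodes a LIM-homeodomain factor that makes the cortical primordium competent to become cortex instead of hem. In ctrl it ran from 84.0 over a median of 122 to 179 CPM. The cKO mice had 67.8 CPM in 5, 69.3 in 7, 107 in S2 and 83.2 in F3. Again 3 of 4 were below every ctrl mouse, and S2 was within the ctrl range. The log2 fold change was -0.69 (SE 0.17, 95% interval -1.01 to -0.36, edgeR FDR = 0.0337). The dKO mice, at 87.9 CPM in T2, 122 in T8, 117 in F1 and 85.6 in F7, all lay within the ctrl range and below the ctrl median. Their difference from ctrl was -0.34 (SE 0.17, unadjusted p = 0.0397 and FDR = 1 in edgeR), and that of cKO from dKO was -0.31 (SE 0.19, edgeR FDR = 1).

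*Dmrta2* (ENSMUSG00000047143.3, chromosome 4, 109978053 to 109983687, plus strand), a DM-domain factor that acts downstream of hem signals, was the least counted of the genes, with 319 counts in all. It is the only one of the 9 with a mean under 10 CPM. Ctrl mice had 7.00 to 15.6 CPM with a median of 10.1. The cKO mice had 5.08 in 5, 4.75 in 7, 8.76 in S2 and 5.00 in F3, and the first, second and last of these lay below every ctrl mouse. The fitted log2 fold change of -0.93 (SE 0.28, 95% interval -1.47 to -0.39) had an unadjusted p = 0.000798 and FDR = 0.191 in edgeR, and with low genes filtered out it was -0.97 with an edgeR FDR of 0.0383. In dKO the values were 1.66 CPM in T2, from a single count, 8.32 in T8, 9.06 in F1 and 5.24 in F7, with a difference from ctrl of -0.79 (SE 0.32, unadjusted p = 0.0141 and FDR = 1 in edgeR). The mutants differed by -0.11 from each other (SE 0.35, 95% interval -0.80 to 0.58), an interval too wide to call them alike.

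*Otx1* (ENSMUSG00000005917.15, chromosome 11, 21994764 to 22002897, minus strand) encodes a homeodomain factor of progenitors and later of deep-layer neurons. The ctrl mice were spread widely, from 8.40 over a median of 14.1 to 28.9 CPM. In cKO it stood at 6.50 CPM in 5, 8.50 in 7, 13.4 in S2 and 11.8 in F3, and in dKO at 9.95 in T2, 12.01 in T8, 11.2 in F1 and 12.4 in F7. Both mutant groups overlapped with ctrl, and all 8 mutant mice lay below the ctrl median. The fitted value was -0.67 in cKO (SE 0.31, unadjusted p = 0.0296 and FDR = 0.852 in edgeR) and -0.46 in dKO (SE 0.32, edgeR FDR = 1).

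*Gli3* (ENSMUSG00000021318.15, chromosome 13, 15463235 to 15730026, plus strand), the zinc-finger factor that represses Hedgehog target genes when no ligand is bound to the pathway's receptor, was the most abundant. Ctrl mice had 296 to 520 CPM with a median of 378. In cKO, mice 5, 7 and F3 had 235, 254 and 203 CPM, below every ctrl mouse, and S2 had 438, above the ctrl median. In dKO, F1 and F7 had 258 and 207 CPM, below every ctrl mouse, while T2 had 313 and T8 387. Fitted values were -0.51 in cKO (SE 0.18, unadjusted p = 0.00526 and FDR = 0.499 in edgeR) and -0.46 in dKO (SE 0.16, unadjusted p = 0.0057 and FDR = 0.939 in edgeR). Between the mutants the value was -0.01 (SE 0.24, 95% interval -0.48 to 0.45).

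*Lef1* (ENSMUSG00000027985.14, chromosome 3, 131110471 to 131224356, plus strand), the HMG-box partner of beta-catenin, ran from 25.2 over a median of 46.1 to 67.1 CPM in ctrl. The cKO values were 32.7 in 5, 31.3 in 7, 46.0 in S2 and 20.9 in F3, of which only F3 lay below every ctrl mouse. The fitted value was -0.61 (SE 0.23, unadjusted p = 0.00844 and FDR = 0.566 in edgeR). In dKO the 2 litters stood apart, with 61.3 CPM in T2 and 69.3 in T8 of litter 3 against 34.4 in F1 and 31.8 in F7 of litter 4. The difference of dKO from ctrl was -0.08 (SE 0.25, edgeR FDR = 1), and that of cKO from dKO was -0.50 (SE 0.28, 95% interval -1.04 to 0.04, edgeR FDR = 1).

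*Nr2f1* (ENSMUSG00000069171.13, chromosome 13, 78188973 to 78199757, minus strand), also known as COUP-TFI, is an orphan nuclear receptor that promotes caudal sensory areas. It ran from 89.0 over a median of 109 to 156 CPM in ctrl. The cKO mice had 130.0 in 5, 132 in 7, 115 in S2 and 80.7 in F3, and the dKO mice 101 in T2, 115 in T8, 100.2 in F1 and 105 in F7. The groups overlapped in all 3 comparisons. The fitted value was -0.04 in cKO (SE 0.16, 95% interval -0.36 to 0.27) and -0.15 in dKO (SE 0.15, 95% interval -0.44 to 0.15).

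*Nr2f2* (ENSMUSG00000030551.14, chromosome 7, 70351944 to 70366735, minus strand), COUP-TFII, is high in the caudal and lateral pallium and also in interneurons from the caudal ganglionic eminence. It ran from 60.7 over a median of 106 to 153 CPM in ctrl. The cKO mice had 140.4 in 5, 156 in 7, 99.1 in S2 and 125 in F3, so that 3 of 4 lay above the ctrl median. In dKO it was 71.3 in T2, 136 in T8, 87.8 in F1 and 136 in F7. Fitted values were 0.31 in cKO (SE 0.19, 95% interval -0.06 to 0.67, unadjusted p = 0.0928 and FDR = 1 in edgeR) and 0.08 in dKO (SE 0.21). *Nr2f2* and *B130024G19Rik* share 643 exon bases on opposite strands, and *Nr2f1* and *A830082K12Rik* share 123. The partners stood at 61.2, 78.4 and 70.0 CPM for *B130024G19Rik* and 129.6, 141 and 139 CPM for *A830082K12Rik* in ctrl, cKO and dKO.

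**Figure D1:**
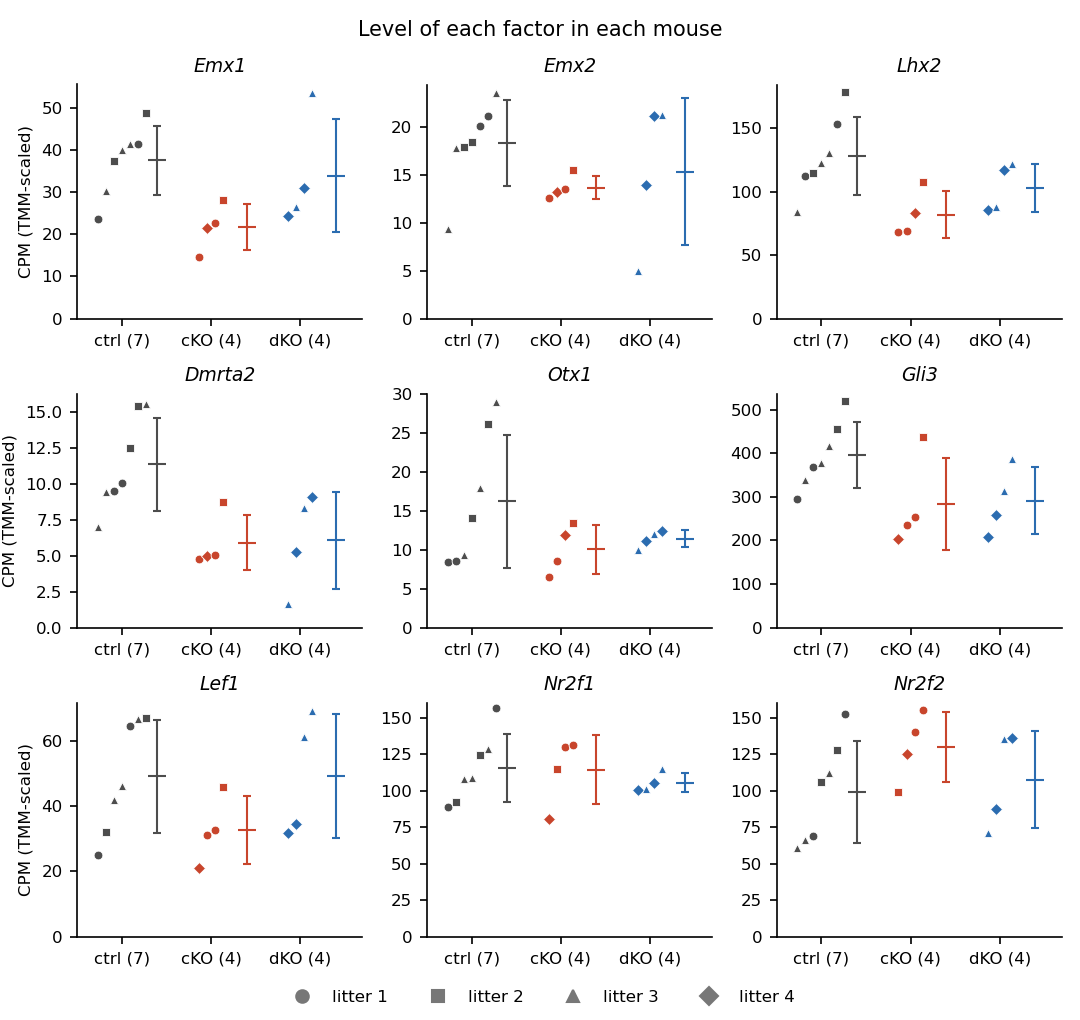
Level of each of the 9 factors in CPM (vertical axes, from 0) in each mouse of ctrl (7), cKO (4) and dKO (4). Points are mice, their shape gives the litter, and the bar to the right of each group is the mean with SD. In *Emx1*, *Lhx2* and *Dmrta2* 3 of 4 cKO mice lie below every ctrl mouse, with S2 of litter 2 highest in cKO, and *Nr2f1* and *Nr2f2* show no such shift.

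In cKO versus ctrl, 2 of the 9 genes were called at an FDR below 0.05. The fall of *Emx1* was known from these libraries when the genes were chosen, so the shares over all genes are no unbiased yardstick. Of all 51912 listed genes 0.16% were called, and of the 9187 genes with a mean of at least 10 CPM 0.686%. Of the 8 with a mean of at least 10 CPM before TMM scaling, 6 had an unadjusted p below 0.05 on the lower side, against 3.77% of the 9187 genes at that level. Their median log2 fold change was -0.56, against 0.04 over the 9187 genes. In dKO versus ctrl 0 of 9 were called (0.0501% of listed genes, 0.152% of the 9187). There 2 of 8 had such a p (2.46%) and the median was -0.22 against 0.01. *Dmrta2*, under 10 CPM, also had such a p in both. In cKO versus dKO 0 of 9 were called (0.052% of listed genes, 0.0762% of the 9187). There 1 of 8 had such a p (1.09%) and the median was -0.21 against 0.06. The first 2 comparisons share the 7 ctrl mice.

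The groups overlapped for each of the 9 genes in all 3 comparisons. Among the 9187 genes, all mice of the first-named group lay below all mice of the second for 0.348% in cKO versus ctrl, 0.414% in dKO versus ctrl and 0.882% for cKO against dKO. Two-sided exact permutation tests of the mean CPM over mice gave p = 0.0182 for *Emx1*, 0.0242 for *Lhx2* and 0.0182 for *Dmrta2* in cKO versus ctrl, and 0.0333 for *Dmrta2* in dKO versus ctrl. The smallest p that these exact tests can give is 0.00303 for 4 against 7 mice and 0.0286 for 4 against 4. After adjustment over the 27 exact permutation tests no value was below 0.218.

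**Figure D2:**
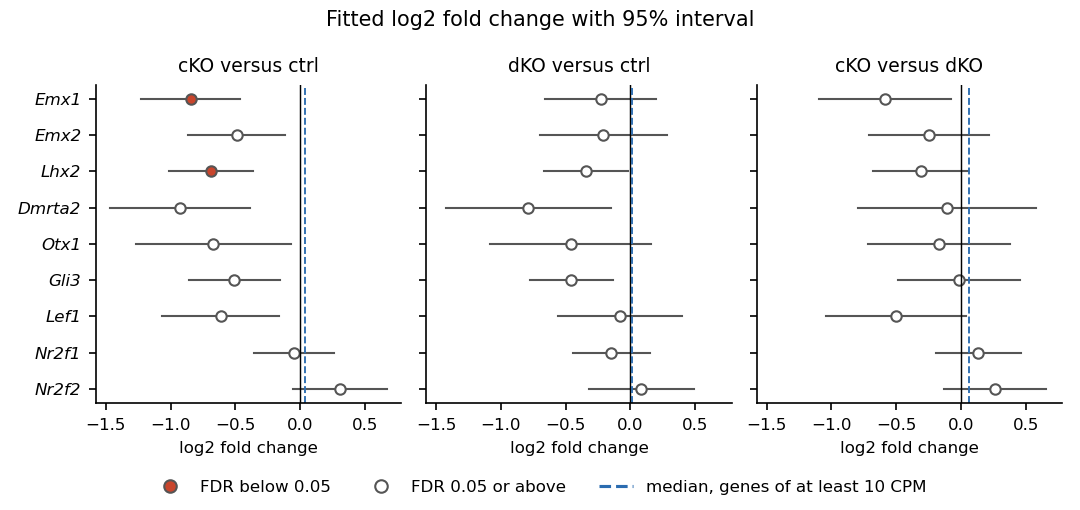
Log2 fold change fitted by edgeR (horizontal axes) of each factor in the 3 comparisons, with 95% intervals as lines. Filled points have an FDR below 0.05 and the dashed line is the median over the 9187 genes with a mean of at least 10 CPM. *Emx1* (-0.84) and *Lhx2* (-0.69) in cKO versus ctrl are the 2 filled points.

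The call of *Emx1* and *Lhx2* rested on few mice. Both stayed below an FDR of 0.05 in 4 of the 11 fits that left out 1 mouse, those without ctrl 2, S1 or T3 or without cKO S2. Without S2 the values were -1.02 and -0.86 (edgeR FDR = 0.000244 and 0.000164), and *Dmrta2*, *Gli3* and *Lef1* passed as well (edgeR FDR = 0.00369, 0.00015 and 0.0478), which made 5 of 9. Without any one of ctrl 6, S3, T4 or T5 or of cKO 5, 7 or F3, 0 of 9 passed, with edgeR FDR from 0.0528 to 0.203 for *Emx1* and from 0.086 to 0.4658 for *Lhx2*. The fitted values themselves stayed between -1.02 and -0.70 for *Emx1* and between -0.86 and -0.59 for *Lhx2*. Both calls were also lost with wild-type ctrl only (-0.79 and -0.67, edgeR FDR = 0.211 and 0.263) and with all 3 groups in one fit (-0.83 and -0.67, edgeR FDR = 0.0841 and 0.0604).

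The comparison was repeated among littermates. In litters 1 and 2, the 3 cKO mice had 45.0% to 70.0% of the mean of their ctrl littermates for *Emx1*, 51.0% to 73.1% for *Lhx2*, 48.5% to 62.9% for *Dmrta2* and 60.9% to 85.1% for *Emx2*. For *Gli3* they had 71.0% to 89.8% and for *Lef1* 69.6% to 92.7%. All 3 mice were thus below the littermate mean for these 6 genes, and for *Emx1*, *Lhx2*, *Dmrta2*, *Emx2* and *Gli3* below every ctrl littermate. Each of these litters had only 2 ctrl mice, and the share of all genes with such an order was not computed. *Otx1* was at 66.7% to 100.3%, with 2 of 3 mice below the littermate mean, *Nr2f1* at 106% to 107% and *Nr2f2* at 84.6% to 140.5%. With litter as a covariate, the log2 fold change was -0.82 for *Emx1* (edgeR FDR = 0.00273) and -0.78 for *Lhx2* (edgeR FDR = 2.3e-06). That contrast rests on litters 1 and 2, because litter 3 held no cKO mouse and litter 4 no ctrl mouse. In the same fit *Otx1* moved from -0.67 to -0.43, *Gli3* from -0.51 to -0.34, *Lef1* from -0.61 to -0.46, *Nr2f2* from 0.31 to 0.037 and *Nr2f1* from -0.04 to 0.0092, while *Dmrta2* had -0.81 and *Emx2* -0.48, none of these 7 called. Within batch 1 alone, with 3 mice in each group, *Emx1* and *Lhx2* had -0.84 and -0.87 (edgeR FDR = 0.922 and 0.148).

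In litter 3 the 2 dKO mice lay on opposite sides of their ctrl littermates' mean for *Emx1*, *Emx2*, *Lhx2*, *Gli3* and *Nr2f2*. T2 had 71.2% and T8 144% of the littermate ctrl mean for *Emx1*, 78.2% and 109% for *Lhx2*, 29.5% and 126% for *Emx2*, and 15.6% and 78.0% for *Dmrta2*. T2 was the shallowest mutant, with 552186 counts, and the ctrl littermates T3 and T5 were shallower still. *Otx1* stood at 53.2% and 64.2%, and *Lef1* at 119% and 134%. Within that litter the dKO estimate turned to 0.16 for *Emx1* and 0.39 for *Lef1*, neither called. In litter 4 the single cKO mouse F3 had 76.9% of the mean of its 2 dKO littermates for *Emx1* and 82.2% for *Lhx2*. It had 75.1% for *Emx2*, 70.0% for *Dmrta2*, 87.3% for *Gli3*, 63.1% for *Lef1* and 78.5% for *Nr2f1*. F3 lay below both littermates for all of these genes. For *Otx1*, at 100.2%, and *Nr2f2*, at 112%, it lay between them. This order rests on a single cKO mouse against 2 dKO mice. The share of all genes with F3 below both littermates was not computed.

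**Figure D3:**
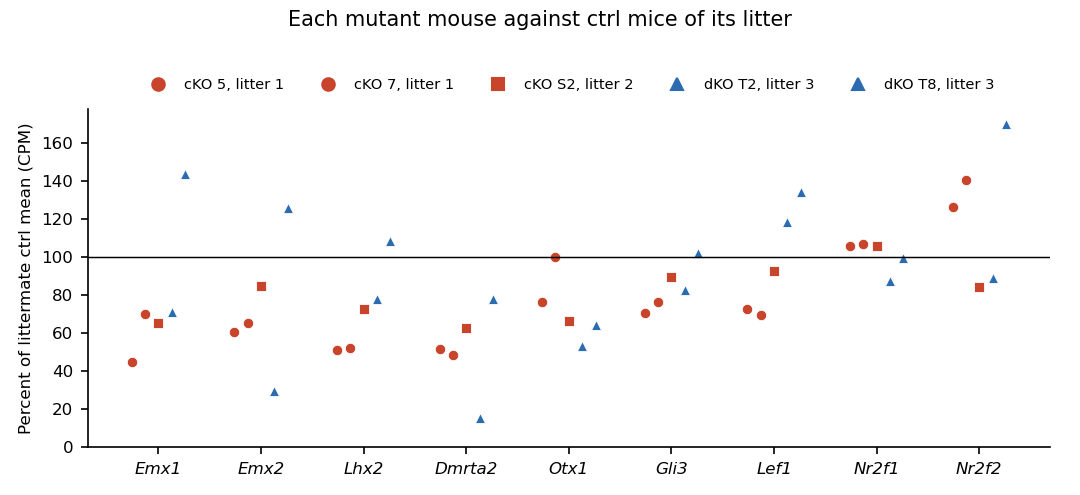
CPM of each cKO and dKO mouse that has ctrl littermates, in percent of the littermate ctrl mean (vertical axis, from 0, with a line at 100). Each point is 1 mouse, red for cKO of litters 1 and 2 and blue for dKO of litter 3. The 3 cKO mice lie between 45.0% and 70.0% for *Emx1* and between 106% and 107% for *Nr2f1*, and the 2 dKO mice at 71.2% and 144% for *Emx1*.

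Levels of different genes were compared per kb of exon. In ctrl the order was *Gli3* at 41.3 ± 7.8 CPM per kb, *Lhx2* at 29.2 ± 7.0, *Nr2f1* at 22.7 ± 4.6, *Emx1* at 17.2 ± 3.8, *Nr2f2* at 11.5 ± 4.1, *Emx2* at 6.11 ± 1.49, *Lef1* at 5.59 ± 1.97, *Dmrta2* at 3.88 ± 1.11 and *Otx1* at 2.99 ± 1.57 (SD, n = 7). Each of *Gli3*, *Nr2f1*, *Emx1* and *Nr2f2* was above the next gene in 7 of 7 mice and *Lhx2* in 6. *Emx2* was above *Lef1* in 3 of 7, so their order is not settled by these mice, and *Lef1* over *Dmrta2* and *Dmrta2* over *Otx1* held in 5 of 7. In cKO *Nr2f1*, at 22.4 ± 4.6 CPM per kb (SD, n = 4), came before *Lhx2* at 18.6 ± 4.2, though in only 2 of the 4 mice, and *Nr2f2* at 15.1 ± 2.8 came before *Emx1* at 9.94 ± 2.54. In dKO the first 5 genes kept the ctrl order.

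**Figure D4:**
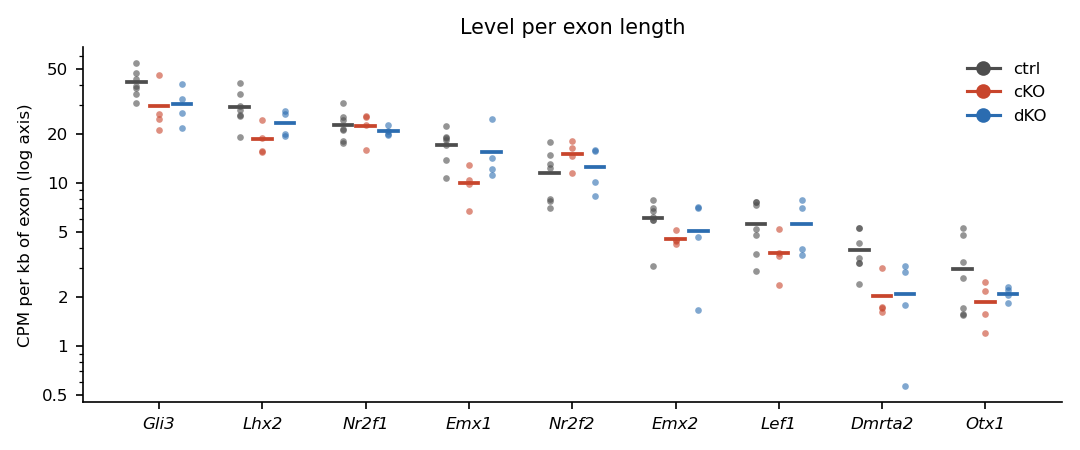
Level per kb of exon (CPM per kb, log axis) of the 9 factors, ordered by the ctrl mean. Points are mice and bars are group means of ctrl (7), cKO (4) and dKO (4). *Gli3* is highest in all 3 groups, and *Emx1* lies above *Nr2f2* in ctrl and dKO and below it in cKO.

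The genes also varied together over the 15 mice, which share groups, litters and depth. Of the 36 pairs, 16 had a Pearson r above 0.5 of log2 CPM and 7 were below 0. The highest was *Emx1* with *Lhx2* (r = 0.84), and *Nr2f2* had r from -0.21 with *Otx1* to 0.31 with *Emx2*. Within the 7 ctrl mice alone *Nr2f2* had r = 0.65 with *Lhx2*, 0.60 with *Emx1*, 0.59 with *Emx2* and 0.55 with *Gli3*. With *Nr2f1*, *Lef1*, *Dmrta2* and *Otx1* its r within ctrl was lower, at 0.31, 0.24, 0.13 and -0.03. Among 7076 genes with a mean of at least 20 CPM, the genes nearest to *Lhx2* were *Eomes* (r = 0.91), a factor of intermediate progenitors, *Mir9-3hg* (0.90) and *Notch2* (0.87). *Notch2*, a Notch receptor, was also nearest to *Emx1* (0.92), before *Lpar1* and *Ston2*. Nearest to *Gli3* were *Pard3* (0.95), a cell polarity gene, *2610307P16Rik* and *Adgrv1*, and near to *Lef1* were *Ephb2* (0.93) and *Tmem164* (0.88). *Dmrta2* was nearest to *Ccnjl* (0.94), *Ddah2* and *Kat6b*, *Emx2* to *Pa2g4* (0.89), *Sema4d* and *Fam210a*, and *Otx1* to *Baz1a* (0.86), *Kat2a* and *Kctd9*. The nuclear receptors had other neighbours, *Srgap3* (0.82), *Rps4x* and *Ubac2* for *Nr2f1* and *Rapgef2* (0.89), *Exoc7* and *Gopc* for *Nr2f2*.

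Other factors of the pallium did not move as 1 block in cKO. Of 19 listed, 3 fell and 0 rose: *Eomes* with a log2 fold change of -1.128 (edgeR FDR = 5.06e-06), *Neurog2*, the proneural factor of glutamatergic progenitors, with -1.19 (edgeR FDR = 0.00564) and *Nfix*, a nuclear factor I gene of late progenitors, with -0.71 (edgeR FDR = 0.0203). The study had already reported these 3 as lower in these libraries. Another 4, *Pax6*, *Nfia*, *Nfib* and *Id4*, all expressed in progenitors and named here after their values were seen, had an unadjusted p below 0.05 on the lower side, with -0.42, -0.47, -0.32 and -0.52. Among the 9187 genes with a mean of at least 10 CPM, 3.77% had such a p. The median over the 17 with a mean of at least 10 CPM was -0.05, with 10 genes below 0 and 7 above, the neuronal factors *Tbr1* at 0.14 and *Fezf2* at 0.20 among the latter. In dKO versus ctrl 0 of the 19 were called, and *Neurog2* and *Eomes* had the smallest p, with -0.64 and -0.51 (edgeR FDR = 0.708 and 0.919). Against dKO, cKO had -0.58 for *Eomes* and -0.41 for *Nfix* (edgeR FDR = 0.78 and 0.838).

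Partners in the 2 signalling routes were called in no comparison. Of the 14 genes of the Wnt nuclear arm, 6 had an unadjusted p below 0.05 on the lower side in cKO and 0 on the higher. Such a p on the lower side was reached by 3.77% of the 9187 genes with a mean of at least 10 CPM, a level that only 11 of the 14 had. The list's median was -0.48 over those 11. *Lef1*'s relatives *Tcf7l1* and *Tcf7l2* led the list, with -0.77 and -0.53 (edgeR FDR = 0.19 and 0.243). In dKO, *Fzd8*, a Wnt receptor, had -0.92 and *Tcf7* 1.37 (edgeR FDR = 0.708 and 1), and the list's median was -0.04. Between the mutants *Tnfrsf19* had -0.44 and the feedback inhibitor *Axin2* -0.40 (edgeR FDR = 0.75 and 1). Of the 12 Hedgehog pathway genes, 4 were on the lower side at an unadjusted p below 0.05 in cKO and 2 in dKO. The shares of the 9187 genes were 3.77% and 2.46%, and only 7 of the 12 had a mean of at least 10 CPM. The co-receptor *Cdon* had -0.62 and *Gli2* -0.58 in cKO (edgeR FDR = 0.0743 and 0.124), and the co-receptor *Gas1* had -0.87 and *Cdon* -0.32 in dKO (edgeR FDR = 0.574 and 1). *Gli1* and *Kif7* had the smallest p between the mutants, with 0.76 and -0.49 (edgeR FDR = 1).

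The signals that pattern the pallium were mostly near the limit of detection, with 8 of 21 at a mean of at least 10 CPM. None was called. The hem ligands *Wnt8b* and *Wnt3a* averaged 2.86 and 2.62 CPM in ctrl and 0.84 and 0.78 in cKO (edgeR FDR = 0.566 and 0.666). In dKO *Fgf15* had -1.31 and *Tgfa* 0.51, and between the mutants *Bmp6* had -1.08 and *Wnt2b* -1.19 (edgeR FDR = 1). Of the 9 paralogues and partners none was called either. In cKO versus ctrl 2 of them had an unadjusted p below 0.05 on the higher side and 3 on the lower, against 7.03% and 3.77% of the 9187 genes. The median was -0.20 over the 9 and 0.23 over the 5 with a mean of at least 10 CPM. *Ldb2*, a LIM-domain binding factor, and the LIM-only gene *Lmo3* had 0.44 and 0.38 in cKO versus ctrl (edgeR FDR = 0.517 and 0.525). They had 0.35 and 0.27 in cKO versus dKO (edgeR FDR = 1), and in dKO versus ctrl *Dmrt3* had -0.67 and *Lmo3* 0.14 (edgeR FDR = 1).

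Transcription factors of the ventral telencephalon were mostly above 0 in cKO versus ctrl. Of 16, 0 were called, and 6 had an unadjusted p below 0.05 on the higher side, *Gsx2* under 10 CPM among them, where 7.03% of the 9187 genes did. Of the 12 with a mean of at least 10 CPM, 10 were above 0, and the median was 0.25, with *Sp9* at 0.70 and *Dlx5* at 0.67 (edgeR FDR = 0.0617 and 0.789). In dKO *Lhx6* had 0.26 and *Ebf1* 0.27 (edgeR FDR = 1), and in cKO versus dKO *Dlx2* had 0.56 (edgeR FDR = 0.565). Several of these genes are also expressed in migrating interneurons. The 12 interneuron markers summed to 2107 to 2706 CPM in ctrl, 3108 to 4459 in cKO and 2271 to 2805 in dKO, with every cKO mouse above every ctrl and dKO mouse. *Erbb4* makes up most of that sum, and the other 11 markers, summed after this was seen, overlapped, at 482 to 956 CPM in ctrl, 876 to 1040.5 in cKO and 643 to 915 in dKO. *Erbb4* and *Gad1* rose by 0.56 in cKO versus ctrl (edgeR FDR = 0.0361 and 0.0408), and the study had already reported both as raised in these libraries.

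**Figure D5:**
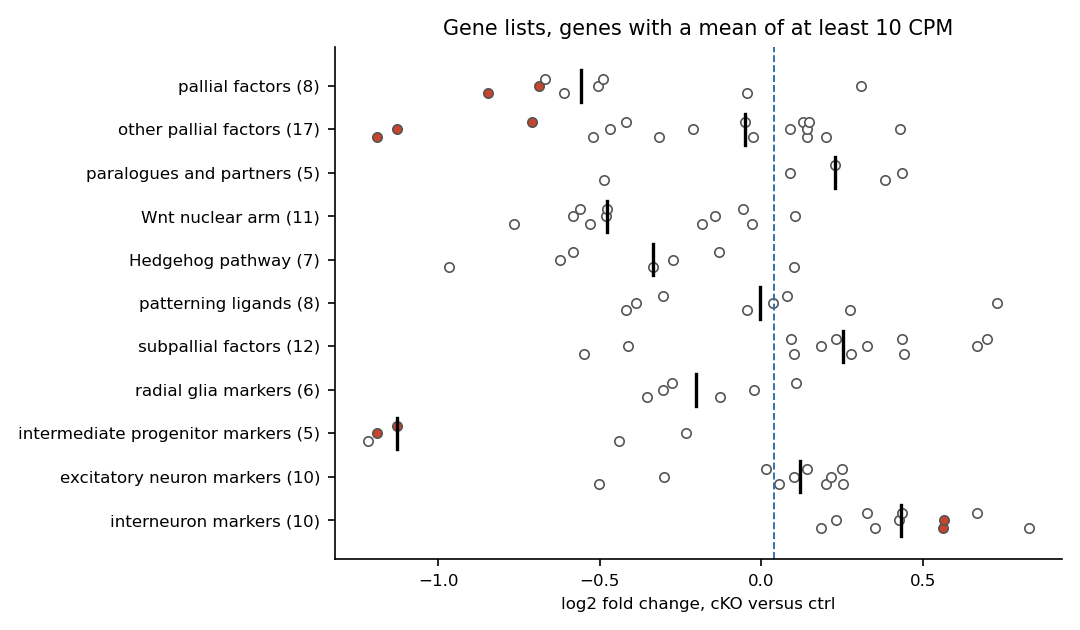
Log2 fold change in cKO versus ctrl (horizontal axis) of each gene with a mean of at least 10 CPM in 11 lists, with the number of genes in brackets. Each point is 1 gene, filled where the edgeR FDR was below 0.05, bars are list medians, and the dashed line is the median over the 9187 genes. The pallial factors have a median of -0.56, the Wnt nuclear arm -0.48, the subpallial factors 0.25 and the interneuron markers 0.43.

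Among the marker lists of other cell types, some held called genes and others held none. The study had already reported *Eomes*, *Neurog2*, *Ttr*, *Aldh1a2*, *Lcp2* and *Wdfy4* as changed in cKO from these same libraries, and *Hba-a2* in dKO. Their calls against ctrl here are therefore no separate evidence on these cell types. The part of these cell types in the results was not tested. The 6 intermediate progenitor markers summed to 155 to 222 CPM in ctrl, 86.6 to 164 in cKO and 103 to 182 in dKO, and 2 of them, *Eomes* and *Neurog2*, fell in cKO. The 10 radial glia markers summed to 1053 to 1522 CPM in ctrl, 1175 to 1248 in cKO and 1016 to 1232 in dKO, with 0 called. *Ptprz1* is the largest part of that sum, averaging 688 CPM in ctrl, 751 in cKO and 585 in dKO. In cKO versus ctrl 3 of the 10 were on the lower side at an unadjusted p below 0.05, where 3.77% of the 9187 genes were. Of the 6 with a mean of at least 10 CPM, 5 had a fitted value below 0 in that comparison. *Sox2*, a defining marker, is listed at 0 in all 15 mice, as is *Neurod1*. The 10 excitatory neuron markers summed to 4134 to 4825 CPM in ctrl, 4443 to 5297 in cKO and 3916 to 4641 in dKO, with 0 called. *Sox5* is the largest part of that sum, averaging 2346 CPM in ctrl, 2460 in cKO and 2008 in dKO. The 8 markers of the choroid plexus, which lies next to the hem, summed to 3.36 to 66.7 CPM in ctrl, 3.64 to 4.75 in cKO and 3.69 to 36.5 in dKO, and *Ttr* fell by 5.61 on the log2 scale in cKO versus ctrl (edgeR FDR = 0.00652) and by 5.02 in cKO versus dKO (edgeR FDR = 0.000404). *Ttr* had no count in ctrl 2, S1 and S3 and 4.70 to 53.2 CPM in ctrl 6, T3, T4 and T5, against 0 to 1.0002 in cKO, so the difference from ctrl rested on those 4 mice. The 8 meninges markers summed to 12.5 to 147 CPM in ctrl, 12.6 to 24.3 in cKO and 6.63 to 152 in dKO, and *Aldh1a2* fell in cKO versus ctrl (edgeR FDR = 0.0408). The 9 microglia markers summed to 7.06 to 21.8 CPM in ctrl, 16.2 to 31.1 in cKO and 14.8 to 26.97 in dKO, and *Lcp2* and *Wdfy4* rose in cKO versus ctrl (edgeR FDR = 0.00481 and 0.0326). Both were near the limit of detection, averaging 0.27 and 0.13 CPM in ctrl and 3.23 and 1.92 in cKO. No other microglia marker was called in that comparison. The 9 vessel markers summed to 96.3 to 145 CPM in ctrl, 109.6 to 136 in cKO and 106 to 201 in dKO, and the 6 Cajal-Retzius markers to 506 to 726, 641 to 724 and 542 to 625 CPM. The 6 blood markers summed to 9.41 to 25.0 CPM in ctrl, 17.5 to 28.7 in cKO and 24.9 to 30.8 in dKO, and *Hba-a2* rose in dKO versus ctrl (edgeR FDR = 0.0203).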

How the data were processed

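Counts per gene were deposited by the authors, made without normalization from UMI-collapsed Click-seq reads. Per the labels and the study's methods, reads were trimmed with cutadapt 1.13, aligned with STAR 2.5.2a to GENCODE GRCm38/mm10, collapsed with UMI-tools 0.5.3 and counted with HTSeq 0.6.1p1 in its intersection-nonempty mode. The strand setting is not given in the sources used here. The 5 summary lines of each file were left out of totals and tests, and 51719 of 51912 identifiers matched GENCODE vM21, which gave symbols, exons and coordinates. The 9 genes and all gene lists were chosen with earlier results of these data known. The genes named from the lists were, per comparison, those called (at most 4 by smallest p) or else the 2 with the smallest p, and for each of the 9 the 3 genes of highest r; of the cell type marker lists only called genes are named. *Pax6*, *Nfia*, *Nfib*, *Id4*, *Gsx2*, *Tbr1*, *Fezf2*, *Sox2*, *Neurod1*, *Ptprz1* and *Sox5* were named after their values were seen. Some genes that this rule names are not reported here.

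Each comparison was fitted on its own 2 groups with edgeR 4.0.16 (R 4.3.3): TMM, estimateDisp, glmFit and glmLRT over all listed genes, with Benjamini-Hochberg FDR. Standard errors and 95% intervals are those of the fitted coefficient. Alternatives were edgeR's quasi-likelihood test, DESeq2 1.42.0, other size factors, a filter, covariates and subsets of mice. On simulated data with 51912 genes and log2 changes of 1, the fit recovered 73 of 100 changed genes in cKO versus ctrl, 73 in dKO versus ctrl and 56 in cKO versus dKO. Before TMM scaling 3 counts were worth 0.341 CPM in S2 and 7.50 CPM in T3, a floor for counting error only. The labels name separate mice, so the spread is between mice. Plots used Python 3.11.15 with matplotlib 3.10.9.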

Additional observations from a re-analysis of the deposited data

Results flagged for a closer look

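Over the 27 groups of mice that the 9 genes give, 2 held a mouse far from the others by Dixon's criterion, where chance gives about 1 in 20 groups. In ctrl, mouse T3 had 9.34 CPM of *Emx2*, from 4 counts, while the next ctrl mouse had 17.8 and the highest 23.5. In cKO, mouse S2 had 8.76 CPM of *Dmrta2*, while the other 3 had 4.75 to 5.08.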

How the results depend on the processing

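Of the 9 genes in cKO versus ctrl, 2 were called, and 4 with the quasi-likelihood test (*Emx1*, *Lhx2*, *Gli3* and *Lef1*), 3 with filterByExpr (*Dmrta2* added), 1 with library S2 alone or with S2 and S2b as separate samples, and 0 with all 3 groups in one fit, with wild-type ctrl only or with batch 1 only. Leaving out each mouse gave 0 to 5. In dKO versus ctrl 0 were called, 1 (*Gli3*) with the quasi-likelihood test, and 0 in every fit that left out a mouse. In cKO versus dKO 0 were called under all alternatives. Exact permutation tests below 0.05 numbered 4, 6 on CPM without TMM, and 2 to 6 when 1 mouse was left out. All listed genes called numbered 83 in cKO versus ctrl (13 to 373 over the alternatives), 26 in dKO versus ctrl (3 to 113) and 27 in cKO versus dKO (3 to 184), with the highest values from the quasi-likelihood test except 373, which came without S2.

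Signs turned in 4 of 252 fitted values of the 9 genes in cKO versus ctrl, 11 of 216 in dKO versus ctrl and 13 of 198 in cKO versus dKO, none of them called, and the cause was not tested. *Nr2f1* in cKO versus ctrl became 0.0092 with litter as covariate, 0.043 in litters 1 and 2, and ran from -0.108 to 0.085 when 1 mouse was left out (above 0 without ctrl 6 or cKO F3). In dKO versus ctrl, *Emx1* and *Lef1* became 0.16 and 0.39 both with litter as covariate and in litter 3 alone. With litter as covariate that contrast also rests on litter 3. *Nr2f2* became -0.073 in mice with at least 600000 counts. When 1 mouse was left out *Lef1* ran from -0.34 to 0.10 (above 0 without ctrl 6 or S3 or dKO F1 or F7) and *Nr2f2* from -0.056 to 0.22 (below 0 without dKO F7 or T8). In cKO versus dKO, *Nr2f1* became -0.36, -0.33 and -0.37 with batch or litter as covariate and in litter 4. *Otx1* became 0.040 and 0.011 with batch or litter as covariate. In those batch, litter and litter 4 fits F3 was the only cKO mouse that informed the contrast. *Gli3* became 0.13 with S2 and S2b separate and 0.0102 in mice with at least 600000 counts. When 1 mouse was left out *Gli3* ran from -0.33 to 0.15 (above 0 without cKO 5, 7 or F3 or dKO T2 or T8) and *Dmrta2* from -0.43 to 0.16 (above 0 without dKO F1). The limit of 600000 counts, and litters 1 and 2 within batch 1 with litter as covariate, where 3 genes were called, were chosen after seeing the data. Mouse names are not shared between groups, so no replicate number pairs the mice. With litter as a block, where the contrast rests on litters 1 and 2, *Emx1* and *Lhx2* remained the 2 genes called in cKO versus ctrl.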
